A study of Mus musculus with 6 samples.

Results

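The metallothioneins and the antioxidant genes driven by the transcription factor NRF2 were followed over 6 mouse exon arrays. The 10 genes are a list of names, drawn up with earlier results of these data known and with no measured value in its rule, and all 10 were found among the 19613 genes of the table: Mt1, Mt2, Mt3, Hmox1, Nqo1, Gclm, Gclc, Srxn1, Txnrd1 and Nfe2l2. The arrays measured total RNA of embryoid bodies, aggregates grown from the mouse embryonic stem cell line HBG3 (so spelled in the labels, and HGB3 in the methods), in which the promoter of the motor neuron gene Hb9 (Mnx1) drives a green fluorescent protein. These aggregates contain motor neurons beside other cells, and they serve as indicator cells whose expression response to a blood fluid is read out. The fluid is plasma in the labels and serum in the series title and the methods, and "serum" is used here. It came from male carrier mice of the Huntington's disease model strain B6CBA-Tg(HDexon1)62Gpb/3J, whose transgene is exon 1 of human huntingtin, at 10 weeks of age and before symptoms. The labels place all 6 arrays in this 1 group, and control arrays were not analysed here, so levels, spread and covariation are described without a comparison between treatments.

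Metallothioneins are small cysteine-rich proteins that bind zinc, copper and cadmium, and their genes are switched on when the zinc-sensing factor MTF1 binds metal response elements near their start. NRF2, the product of Nfe2l2, is held at a low level by KEAP1 and CUL3 until oxidants or electrophiles modify KEAP1, after which it binds antioxidant response elements together with small MAF proteins. Its targets make and use glutathione, reduce thioredoxin, peroxiredoxins and quinones, and break down heme, and in neural tissue much of this response is known from astrocytes.

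The start regions of the metallothioneins and of Srxn1 are shown, since the results below set these genes side by side. They are RefSeq windows of the assembly GRCm38.p6, from 250 bases before to 50 bases after the start of each gene, and capitals mark matches on either strand to the metal response letters TGCACNC or TGCGCNC, the antioxidant response core TGACNNNGC, or TGANTCA.
Mt1 promoter, chr8:94178839-94179138, plus strand: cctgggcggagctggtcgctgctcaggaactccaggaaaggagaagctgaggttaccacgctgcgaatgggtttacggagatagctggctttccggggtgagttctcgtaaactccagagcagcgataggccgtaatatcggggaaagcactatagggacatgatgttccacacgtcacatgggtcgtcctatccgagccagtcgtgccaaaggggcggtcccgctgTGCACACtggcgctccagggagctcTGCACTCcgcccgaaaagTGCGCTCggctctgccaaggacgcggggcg
Mt2 promoter, chr8:94172368-94172667, plus strand: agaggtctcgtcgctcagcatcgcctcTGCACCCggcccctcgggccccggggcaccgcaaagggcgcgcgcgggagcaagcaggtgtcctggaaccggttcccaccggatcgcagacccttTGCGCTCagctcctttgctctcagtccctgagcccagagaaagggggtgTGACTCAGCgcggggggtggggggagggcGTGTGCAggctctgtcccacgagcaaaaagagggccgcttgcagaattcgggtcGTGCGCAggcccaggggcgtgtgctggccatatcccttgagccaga
Mt3 promoter, chr8:94152357-94152656, plus strand: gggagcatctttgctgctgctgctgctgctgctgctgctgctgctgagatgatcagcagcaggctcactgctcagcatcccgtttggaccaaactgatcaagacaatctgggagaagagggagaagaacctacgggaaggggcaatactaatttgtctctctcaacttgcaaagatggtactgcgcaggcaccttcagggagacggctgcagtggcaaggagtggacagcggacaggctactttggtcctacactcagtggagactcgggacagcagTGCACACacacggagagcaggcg
Srxn1 promoter, chr2:152105274-152105573, plus strand: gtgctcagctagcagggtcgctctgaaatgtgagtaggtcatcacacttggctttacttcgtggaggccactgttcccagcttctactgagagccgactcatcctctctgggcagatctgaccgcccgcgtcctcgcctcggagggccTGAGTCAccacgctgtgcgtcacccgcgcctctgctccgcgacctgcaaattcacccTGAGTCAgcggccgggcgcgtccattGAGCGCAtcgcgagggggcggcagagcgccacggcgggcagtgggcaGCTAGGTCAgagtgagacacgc
The Mt1 window held 3 matches to the metal response letters and the Mt2 window held 4, whereas the Mt3 window and the Srxn1 window each held 1. An antioxidant response core was found once in the Mt2 window, where it overlapped the only TGANTCA there, and once in the Srxn1 window beside 2 matches to TGANTCA. The Mt1 and Mt3 windows had no match to the antioxidant response core. Of the windows not shown, that of Gclm held 3 matches to the metal response letters and 1 antioxidant core, that of Nfe2l2 held 1 antioxidant core, 1 of the 3 windows of Txnrd1 held 1 antioxidant core, and that of Nqo1 held none of these letters. Over the 10 windows of the 8 genes that have one, 5 held metal response letters of either form, against 25.7% of all 32851 windows, 5 held the antioxidant core, against 12.4%, and 2 held TGANTCA, against 7.81%. A match is a description of the letters and not a site in use.

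The 6 arrays are called replicates 2, 4, 5, 6, 7 and 8, after the numbers in their titles. Their median intensities lay between 296 and 311, and the average correlation of an array with the others over all genes was lowest, at 0.992, in replicate 8. The lower quartile of intensity was 109 in replicate 8, 121 in replicates 2 and 4, and 129 in replicates 5, 6 and 7. The study classified 6 sera of this model, but the labels tie no array to a serum, a culture or a batch of embryoid bodies, so the SDs and p-values below measure only the spread between these arrays, which may come from the sera, the cultures or the technique. In bulk RNA, fewer cells of a type and less RNA per cell cannot be told apart.

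The background level was set at a mean log2 intensity of 7.47, which 95% of 1032 olfactory receptor genes did not exceed. It was passed by 65.2% of all genes and by 9 of the 10 followed here. The exception was Nqo1, the quinone reductase often used as a reporter of NRF2 activity. The SDs of the 9 genes above background ranged from 0.050 to 0.14 on the log2 scale, with a median of 0.077, beside a median of 0.076 over all 12793 genes above background. None of the 9 had an SD above 0.2, a size passed by 4.16% of the genes above background. Probe sets differ in how well they bind, so the intensities below do not rank the genes by amount of transcript.

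**Figure D1:**
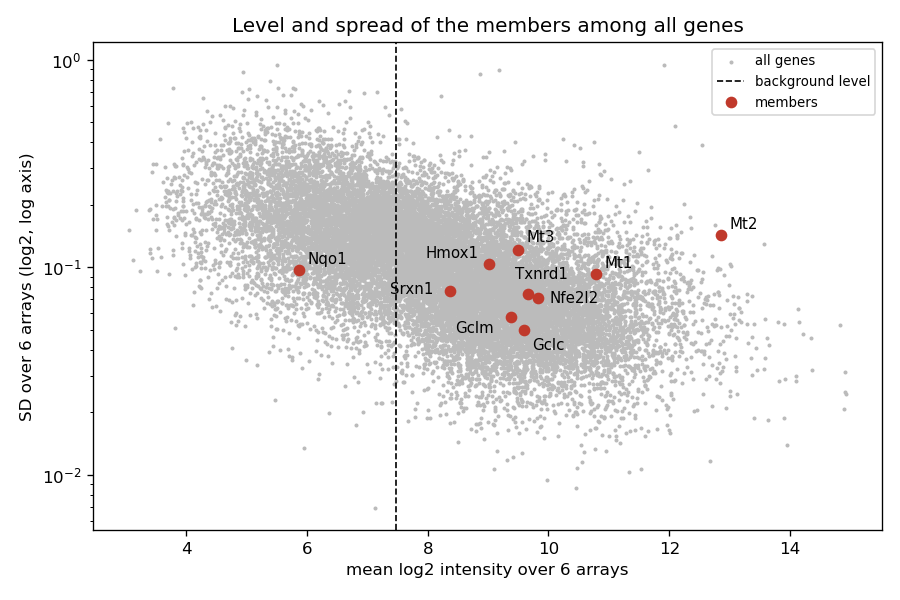
Mean log2 intensity over 6 arrays (x axis) against the SD over the same arrays (y axis, log axis) for all genes of the table in grey and the 10 followed genes in red, with the background level of 7.47 as a dashed line. Nqo1 lies left of the line, and Mt2 has the highest mean and the highest SD of the 10.

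Of the metallothioneins, Mt1 and Mt2, the forms used in most tissues, had log2 intensities far above the background level. Mt1 read 10.69 in replicate 2, 10.92 in replicate 4, 10.71 in replicate 5, 10.88 in replicate 6, 10.77 in replicate 7 and 10.74 in replicate 8, a mean of 10.78 ± 0.093 (SD, n = 6). Mt2 read 12.65, 12.98, 12.96, 12.99, 12.80 and 12.75 in the same order of replicates, a mean of 12.86 ± 0.14. Both genes were lowest in replicate 2 and high in replicates 4 and 6, and they parted in replicate 5, where Mt2 was among its 3 highest values and Mt1 was next to its lowest. The highest array exceeded the lowest 1.17-fold for Mt1 and 1.27-fold for Mt2. Both lie next to each other in the genome and their transcripts are much alike, and no step that would tell their signals apart is given in the methods, so their separate values are uncertain.

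Mt3, the growth-inhibitory metallothionein of the nervous system, took a different course over the arrays. It read 9.42 in replicate 2, 9.46 in replicate 4, 9.69 in replicate 5, 9.57 in replicate 6, 9.49 in replicate 7 and 9.34 in replicate 8, a mean of 9.50 ± 0.12 (SD, n = 6). All values of replicates 5, 6 and 7 stood above all values of replicates 2, 4 and 8, and the range was 1.27-fold. Against the 500 genes nearest to each in mean level, the SD of Mt1 exceeded that of 81.0%, the SD of Mt2 that of 96.0% and the SD of Mt3 that of 89.4%. The median SD of those neighbours was 0.057, 0.056 and 0.067, so each metallothionein varied more than the typical gene of its level. Mt4, the form of stratified epithelia and the neighbour of Mt3, had the highest SD of the 4 metallothioneins, 0.19 around a mean of 8.36, and ran from 8.16 in replicate 5 to 8.64 in replicate 2.

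Among the antioxidant enzymes, Hmox1, the inducible heme oxygenase that frees iron, carbon monoxide and biliverdin from heme, varied most. Its log2 intensities were 9.02 in replicate 2, 9.14 in replicate 4, 9.12 in replicate 5, 8.99 in replicate 6, 8.86 in replicate 7 and 9.0 in replicate 8, a mean of 9.02 ± 0.10 (SD, n = 6). Replicates 4 and 5 were high and replicate 7 was low, 1.22-fold apart at the ends. Its SD exceeded that of 76.8% of the 500 genes nearest in level, whose median was 0.073.

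The pair of subunits of glutamate-cysteine ligase, the rate-limiting enzyme of glutathione synthesis, varied least of the 10. Gclc, the catalytic subunit, read 9.59, 9.65, 9.57, 9.56, 9.51 and 9.64 in replicates 2, 4, 5, 6, 7 and 8, a mean of 9.59 ± 0.050. Gclm, the modifier subunit, read 9.37, 9.46, 9.37, 9.41, 9.29 and 9.42 in that order, a mean of 9.39 ± 0.058. Both were highest in replicate 4 and lowest in replicate 7, with replicate 8 next to the top, and the whole range was 1.10-fold for Gclc and 1.12-fold for Gclm. Only 26.6% of the 500 genes of like level had a smaller SD than Gclc, and 32.0% had a smaller SD than Gclm.

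Txnrd1, the cytosolic thioredoxin reductase, stood at 9.60 in replicate 2, 9.80 in replicate 4, 9.70 in replicate 5, 9.62 in replicate 6, 9.61 in replicate 7 and 9.68 in replicate 8, a mean of 9.67 ± 0.074. Replicate 4 decided much of that spread, since without it the SD was 0.044. Srxn1, the sulfiredoxin that repairs over-oxidized peroxiredoxins, read 8.28 in replicate 2, 8.39 in replicate 4, 8.47 in replicate 5, 8.39 in replicate 6, 8.39 in replicate 7 and 8.27 in replicate 8, a mean of 8.36 ± 0.077. It was highest in replicate 5 and lowest in replicates 8 and 2, the array order of Mt3 at both ends. Nqo1 read between 5.72 in replicate 2 and 5.99 in replicate 7, with a median of 5.89 and a mean of 5.87 ± 0.097, all below the background level, so its spread cannot be read as variation of a transcript.

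Nfe2l2, which codes for NRF2 itself, read 9.86 in replicate 2, 9.90 in replicate 4, 9.72 in replicate 5, 9.79 in replicate 6, 9.79 in replicate 7 and 9.89 in replicate 8, a mean of 9.82 ± 0.071. Its values in replicates 2, 4 and 8 all stood above those in replicates 5, 6 and 7, the reverse of Mt3. NRF2 is controlled largely through the stability of the protein, which these arrays do not measure. Over the 10 genes, replicate 4 was the highest array for 6 and the lowest for 0. The array holding the lowest value was replicate 2 for 4 genes, replicate 7 for 3, replicate 8 for 2 and replicate 5 for 1. This tally includes Nqo1, which lies below background. It was not made over all genes, so it cannot be read as a trait of these 10.

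**Figure D2:**
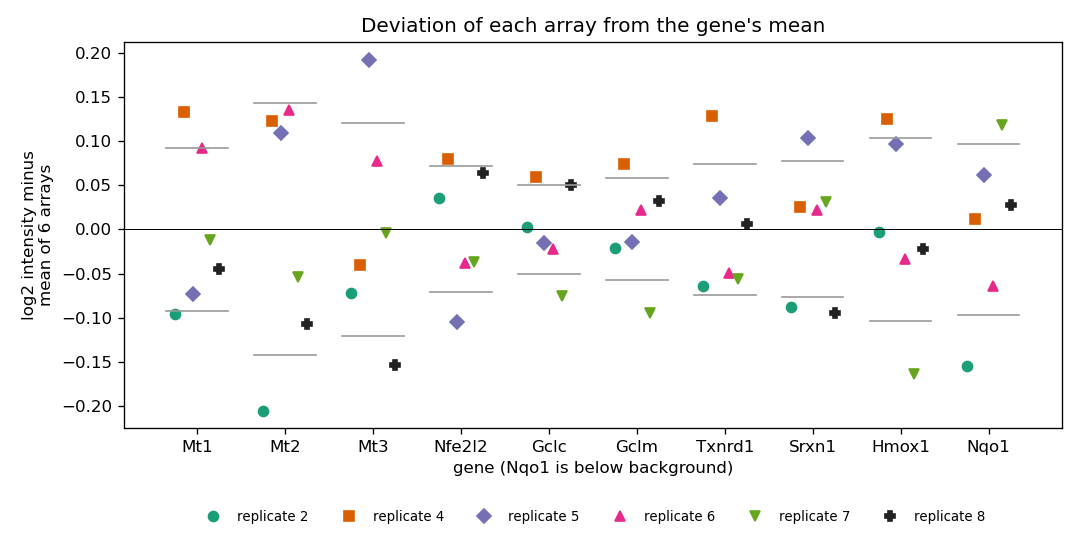
Log2 intensity of each array minus the mean of the 6 arrays (y axis) for the 10 genes (x axis), with 1 symbol and colour per replicate. Replicate 4 is the highest array for 6 of the 10 genes, a tally not made over all genes. The order of replicates in Mt3 runs against that in Nfe2l2.

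Covariation was described over the 45 pairs of the 10 genes, with Pearson's r and Spearman's rho each tested by a two-sided exact permutation test over the 720 pairings of 6 arrays. Over the 36 pairs of the 9 genes above background the median r was 0.32 and 29 pairs were positive. The median ran from 0.22 without replicate 4 to 0.52 without replicate 5. Over all pairs of genes above background the median r was -0.001 and 49.9% were positive. Pairs of 1 set of genes share the same arrays and genes and are not independent. The 10 genes were also set against every gene above background, 127885 relations in all, of which 6.74% had an exact permutation p under 0.05 for r and 0 passed after Benjamini-Hochberg adjustment, the lowest adjusted p being 0.708. The smallest p that 6 arrays allow is 0.00139. Over this many relations, even a perfect correlation could not pass the adjustment unless very many others had p-values that small. Among the 45 pairs, 3 had an exact permutation p under 0.05 for r and 0 for rho, and none of the 3 passed the adjustment.

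Within the metallothioneins, r was 0.69 for Mt1 and Mt2 (exact permutation p = 0.158, adjusted p = 0.811), with a rho of 0.77 (exact p = 0.103). Over the 4 arrays nearest to the Mt1 median r was 0.18, and over the 4 nearest to the Mt2 median it was 0.42, so the relation rests on the arrays at the ends. Leaving out replicate 5 alone raised r to 0.98 (exact permutation p = 0.0167), and leaving out replicate 2 lowered it to 0.55. Mt2 and Mt3 had an r of 0.67 (exact permutation p = 0.157) and a rho of 0.66, and Mt1 and Mt3 had an r of 0.026, which was 0.56 without replicate 5 and -0.16 without replicate 8. None of these 3 pairs passed the test over the 6 arrays.

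Of the followed enzymes of heme breakdown, glutathione synthesis and thioredoxin reduction, Hmox1, Gclm, Gclc and Txnrd1 had positive r with each other. Gclm and Gclc had an r of 0.89 (exact permutation p = 0.0236, adjusted p = 0.708) and a rho of 0.77 (exact p = 0.103). With the 2 arrays most distant from the Gclm median left out, r was 0.47, and it was also 0.47 with those most distant in Gclc left out, so it rests in good part on them. Hmox1 and Txnrd1 had an r of 0.79 (exact permutation p = 0.0667) and a rho of 0.66. Their r was 0.70 once the 2 arrays most distant from the Hmox1 median were left out. It was 0.26 with those most distant from the Txnrd1 median left out. All 6 pairs among Hmox1, Gclm, Gclc and Txnrd1 lay between 0.68 and 0.89, a set put together after its values were seen and therefore given without a test. Those of Hmox1 with the glutathione enzymes rest on replicate 7, without which r was 0.30 with Gclm and 0.28 with Gclc, and they turned to -0.63 and -0.34 once the 2 arrays most distant from the Hmox1 median were left out. Those of Txnrd1 with Gclm and Gclc were 0.37 and 0.43 without replicate 4. The r of Srxn1 with these 4 genes ran from -0.41 with Gclc to 0.32 with Txnrd1, and the median over the 10 pairs of the 5 targets above background was 0.68.

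Among the 10 genes, Srxn1 had its highest r with Mt3 and Mt2, and an r of 0.28 with Mt1. Its r with Mt3 was 0.89 (exact permutation p = 0.0264, adjusted p = 0.708), with a rho of 0.83 (exact p = 0.0583), and r was 0.62 once the 2 arrays most distant from the Mt3 median were left out. Its r with Mt2 was 0.80 (exact permutation p = 0.0819) but its rho only 0.43, and r was 0.14 once the 2 arrays most distant from the Mt2 median were left out. Nfe2l2 ran opposite to Mt3, with an r of -0.89 (exact permutation p = 0.0181, adjusted p = 0.708) and a rho of -0.83 (exact p = 0.0583), and r was -0.73 once the 2 arrays most distant from the Mt3 median were left out. Leaving out replicate 5 took the exact permutation p of Mt3 with Nfe2l2 to 0.142 and that of Mt3 with Srxn1 to 0.125, and leaving out replicate 8 took them to 0.0583 and 0.117. The r of these pairs was -0.75 and 0.79 without replicate 5, and -0.88 and 0.82 without replicate 8. Without replicate 2 it was -0.88 and 0.92, with an exact permutation p of 0.0583 and 0.0917. Fewer arrays also leave fewer pairings, so p can rise where r hardly moves. Of the targets, Gclc had an r of 0.75 with Nfe2l2 (exact permutation p = 0.0972) and Srxn1 an r of -0.73, which was -0.48 without replicate 5. The r of Hmox1 with Nfe2l2 was 0.15 and had no settled sign, since it was 0.78 without replicate 5 and -0.25 without replicate 4. That of Txnrd1 with Nfe2l2 was 0.33 and likewise ran from 0.73 without replicate 5 to -0.31 without replicate 4. Gclm had an r of 0.56 with Nfe2l2, which was 0.32 without replicate 4.

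**Figure D3:**
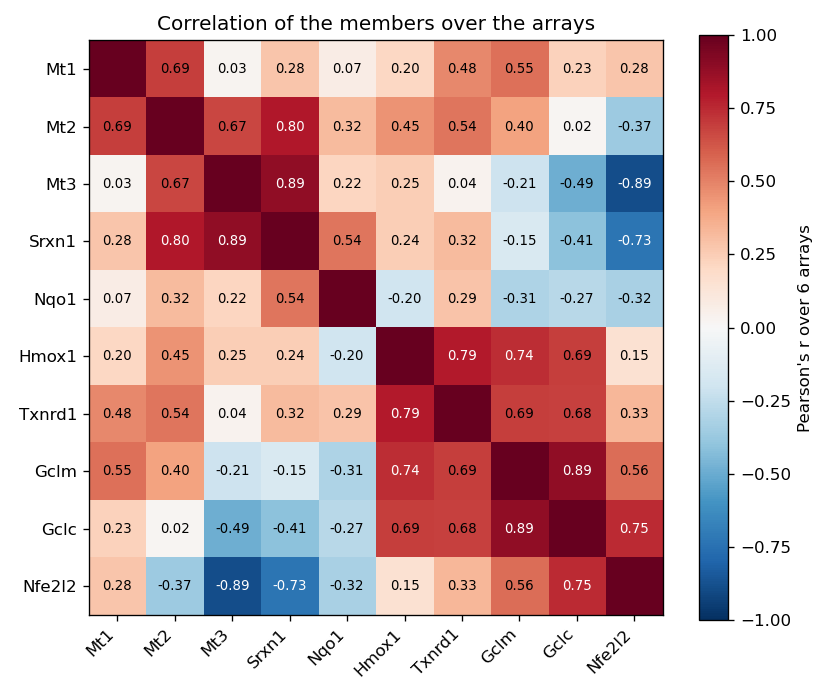
Pearson's r over the 6 arrays for every pair of the 10 genes, as a colour and a printed value. Gclm with Gclc and Mt3 with Srxn1 reach 0.89, and Mt3 with Nfe2l2 reaches -0.89.

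A fit over all genes above background was also made with limma, with the log2 intensity of Mt1, Nqo1 or Nfe2l2 as the predictor. With Mt1 as predictor, 0% of 12792 genes had an adjusted p under 0.05, and 469 had an unadjusted p under 0.05. With Nqo1, which lies below background, the figures were 0% of 12793 genes and 111 unadjusted. With Nfe2l2 they were 0% of 12792 genes and 1924 unadjusted, with a lowest adjusted p of 0.252. The exact permutation test also gave 0 genes after adjustment, and 443, 166 and 1522 before it. In the limma fit Mt2 had a slope of 1.07 per log2 unit of Mt1 (SE 0.41, unadjusted p = 0.0292, limma adjusted p = 0.9998). Mt3 had a slope of -1.51 per log2 unit of Nfe2l2 (SE 0.39, unadjusted p = 0.00426, limma adjusted p = 0.252), and Gclc a slope of 0.52 (SE 0.33, limma adjusted p = 0.472).

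The genes differed in how much of the transcriptome ran with them. An exact permutation p under 0.05 was reached by 14.5% of genes with Mt3, 11.9% with Nfe2l2, 10.9% with Gclc and 9.56% with Srxn1, but by 3.46% with Mt1, 3.56% with Mt2, 5.40% with Hmox1, 4.18% with Gclm, 2.70% with Txnrd1 and 1.30% with Nqo1. The first 4 of these genes were also those whose values moved most with the lower quartile of intensity of the array. That measure had an r of 0.81 with Mt3 (exact permutation p = 0.0556, rho 0.77), -0.76 with Nfe2l2 (exact permutation p = 0.0514, rho -0.77), -0.76 with Gclc (exact permutation p = 0.0736, rho -0.89) and 0.76 with Srxn1 (exact permutation p = 0.115, rho 0.49). Without replicate 8, which had the lowest quartile, r was 0.72 for Mt3, -0.89 for Nfe2l2, -0.79 for Gclc and 0.61 for Srxn1. The other 5 genes above background had an r between -0.47 and 0.48. Of all 12793 genes, 22.8% had an exact permutation p under 0.05 with this measure and 0 passed the adjustment, whose lowest adjusted p was 0.101, and 23.2% had an r at least as far from 0 as that of Mt3.

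**Figure D4:**
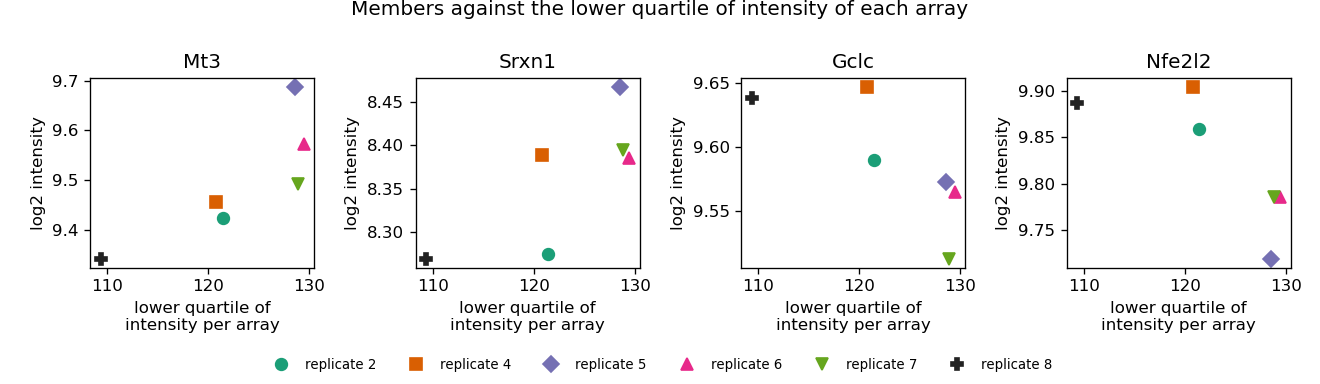
Log2 intensity of Mt3, Srxn1, Gclc and Nfe2l2 (y axes) against the lower quartile of intensity of each array (x axes), 1 point per replicate. Replicates 5, 6 and 7, whose lower quartile was 129, hold the 3 highest values of Mt3 and the 3 lowest of Nfe2l2.

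Markers of other cell types were read on the same arrays, and the means over endoderm markers and over blood markers lay below the background level of 7.47 on every array, where spread cannot be read as variation of a transcript. The mean log2 intensity of 5 endoderm markers, of which 2 were above background, ran from 6.91 in replicate 8 to 7.31 in replicate 5. That of 4 mesenchyme markers, of which 3 were above background, ran from 7.7 in replicate 8 to 8.01 in replicate 5. Both means were lowest and highest in the same arrays as Mt3 and Srxn1. Among the markers above background, so were Col1a1, which ran from 8.43 to 8.79, and Gata6, which ran from 7.93 to 8.21. The other endoderm and mesenchyme markers above background were also lowest in replicate 8. Their highest values lay elsewhere, in replicate 7 for Gata4 and in replicate 6 for Col1a2 and Col3a1. For 5 glial markers, of which all but Aqp4 were above background, the mean ran from 8.79 in replicate 8 to 9.02 in replicate 7, and for 4 markers of blood cells and macrophages, of which only Csf1r was above background, from 6.98 in replicate 8 to 7.29 in replicate 7. The 5 motor neuron markers were all above background, and their mean ran from 9.09 in replicate 7 to 9.27 in replicate 5. The mean of 3 pluripotency markers, of which only Nanog was above background, ran from 7.82 in replicate 2 to 8.07 in replicate 5. The median over the olfactory receptor genes, used for the background level, was likewise lowest in replicate 8, at 5.44, and highest in replicate 6, at 5.61. The part of the lower quartile and of these cell types in the values of Mt3, Srxn1, Gclc and Nfe2l2 was not tested.

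For each gene, the 3 genes with the most similar course over the arrays were taken from the genes above background with at least the median SD. The r was between 0.96 and 0.99 for the 3 nearest to Mt1, which were the splicing regulator Ptbp1, Zcchc12 and the RNA polymerase subunit Polr2e, and Mt2 came at place 209 of 6396. Nearest to Mt2 were 4930431F12Rik, 1700095A21Rik and Klhl21, with Srxn1 at place 110, Mt1 at 323 and Mt3 at 389. Nearest to Mt3 were Coro6, the homeobox gene Evx2 of ventral spinal interneurons and Tmem151a, with Srxn1 at place 371. No other metallothionein or NRF2 target was thus among the closest to any metallothionein. Nearest to Hmox1 were the ribosomal protein gene Rps19, the Wnt receptor gene Fzd4 and 1700020O03Rik. Gclm ran closest with Antxr2, St13 and the ribosomal protein gene Rps12, and Hmox1 came at place 298. Gclc ran closest with Rragc, the Notch target Hes1 and Fam165b, and Hmox1 came at place 685. For Txnrd1 they included BC067068 and C130060K24Rik, with Hmox1 at place 97, and for Srxn1 they were Spns3, Insc and Gcat, with Mt3 at place 117. For Nfe2l2 they were Rab11fip2, Cr1l and Senp2, with Mt3 at place 6199. Zfp600, Sgol2 and Sh2d4b were nearest to Nqo1, whose values lie below background. Gclm, Gclc, Txnrd1 and Nfe2l2 had an SD under the median and could not appear in another gene's order.

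The wider pathways were described over 9 lists, in which 83 of 89 matched genes were above background with a median SD of 0.081, beside 0.076 over all genes above background. Only 1 of the 83 had an SD above 0.2, against 4.16% of all genes. The median pairwise r within a list lay between -0.38 and 0.12 for 8 of the lists, with -0.13 for the 4 metallothioneins including Mt4 and -0.006 for glutathione, and was 0.60 for the 6 genes of amino acid stress. The gene with an SD above 0.2 was Tfrc, the transferrin receptor, at 9.53 ± 0.21, which ran from 9.31 in replicate 5 to 9.83 in replicate 8. Beside it in the list of quinone, heme and iron genes, Hmox2, the constitutive heme oxygenase, had the lowest SD (10.21 ± 0.050), and Ftl1, the ferritin light chain, the highest mean (13.07 ± 0.060). In that list 8 of 10 genes were above background, and Slc40a1, the iron exporter, was below it together with Nqo1.

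On the side of metals, 19 of 20 genes of metal sensing and zinc transport were above background, with a median SD of 0.071. Mtf1, the zinc sensor that acts on the metallothionein genes, had the lowest SD of the list, 0.028 around a mean of 8.91. The highest SD was that of Slc30a10, a manganese exporter, at 7.68 ± 0.16, and the highest mean that of the zinc importer Slc39a6, at 10.70 ± 0.054. The metallothioneins themselves had a median SD of 0.13 over 4 genes, the highest of the 9 lists.

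Upstream of NRF2, 9 of 10 regulators were above background, with a median SD of 0.088. Cul3, the scaffold of the ubiquitin ligase that marks NRF2, was the steadiest at 11.17 ± 0.030. Mafg, a small MAF partner, had the highest SD at 9.14 ± 0.12, and Nfe2l1, the relative of NRF2, the highest mean at 11.40 ± 0.088. Downstream, 15 of 16 glutathione genes were above background, with a median SD of 0.078. Slc7a11, the cystine importer that feeds glutathione synthesis, had both the highest mean and the highest SD of that list, 10.99 ± 0.18, and ran 1.41-fold from 10.71 in replicate 8 to 11.21 in replicate 4. Gclc had the lowest SD, so both ends of the spread in the list belonged to the supply of glutathione.

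All 13 thioredoxin and peroxiredoxin genes were above background, with a median SD of 0.066, from 0.016 for the mitochondrial thioredoxin Txn2 (mean 10.61) to 0.17 for the thioredoxin-binding protein gene Txnip (mean 11.35). Txn1, the cytosolic thioredoxin, had the highest mean of the list, 13.30 ± 0.043. All 6 genes of NADPH supply were above background, with a median SD of 0.077. Their ends were the malic enzyme Me1, at 8.89 ± 0.063, and the isocitrate dehydrogenase Idh1, at 11.03 ± 0.17, which also had the highest mean. Of the 4 genes that remove superoxide and peroxide, 3 were above background: the mitochondrial Sod2 was the steadiest (10.91 ± 0.031), catalase (Cat) varied most (11.33 ± 0.097) and the cytosolic Sod1 had the highest mean (12.30 ± 0.084). The 6 genes of amino acid stress, an ATF4-driven response that shares targets with NRF2, had a median SD of 0.12. They ran from the pseudokinase Trib3, at 10.001 ± 0.086, to the factor Ddit3, at 9.41 ± 0.17, and the asparagine synthetase Asns had the highest mean, 12.42 ± 0.11.

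**Figure D5:**
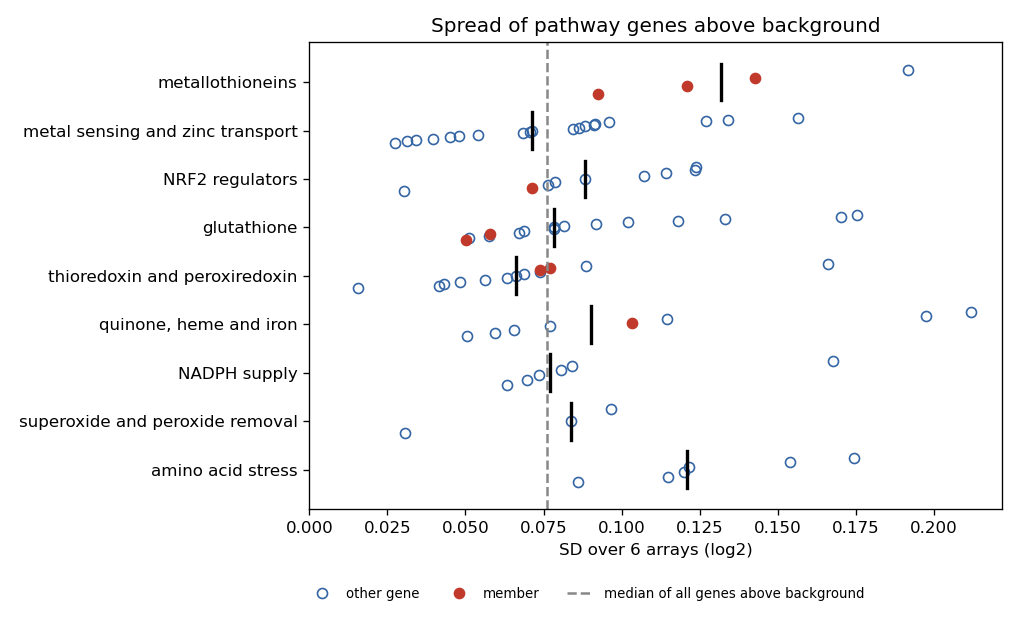
SD over 6 arrays on the log2 scale (x axis) of each gene above background in 9 pathway lists (y axis), with the followed genes filled in red, the other genes as open circles, a black bar at the median of each list and a dashed line at the median of all genes above background (0.076). The metallothionein median of 0.13 is the highest, and Tfrc, at 0.21, lies farthest to the right.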

How the data were processed

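RNA of 6 samples of embryoid bodies was measured on Affymetrix mouse exon arrays. The deposited values are linear intensities, 1 per gene and array, which per the study's methods the authors obtained by Robust Multi-array Averaging in Aroma Affymetrix and averaged over the exons of a gene. The submitters' processing notes name Affymetrix Expression Console and RMA. The authors' later correction for batches of neurons gives log2 ratios and is not part of these linear values. The genome build is not given in the sources used here. The authors removed outlying arrays, and the labels do not say whether these 6 had been through that screen, which would lower the SDs. The number of arrays limits the precision.

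The log2 of each intensity was taken, without a pseudocount. Background was the 95th percentile of the means of 1032 olfactory receptor genes. Correlations were tested by exact permutation over 720 pairings (Python 3.11.15, numpy 2.4.6), and p-values were adjusted by Benjamini-Hochberg over all relations of the 10 genes with genes above background. Regressions on Mt1, Nqo1 and Nfe2l2 used limma 3.58.1 (R 4.3.3) with a trended prior, two-sided. These steps were tested on simulated data. For the limma fit the simulated relations had much less noise than the real genes, so the power to find relations here was not tested. The p-values of relations to the lower quartile of intensity were adjusted over 12793 genes. Replicate numbers name the arrays and pair nothing.

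All 10 genes are named, with the 3 genes most similar to each in Pearson's r, of which 1 is not reported here, and of each pathway list the genes with the highest SD, the lowest SD and the highest mean. The genes and lists were chosen with earlier results of these data known. Bach1, Gstp1 and Hba-a1 were not analysed here. Promoter windows come from RefSeq, which in the table used gave none for Hmox1 and Gclc. Median centring, quantile normalization, Spearman's rho, linear intensities, other background levels and leaving out each array were tried. Those for the number of related pairs and for the pairs of Mt3 with Nfe2l2, Mt3 with Srxn1, Gclm with Gclc and Hmox1 with Txnrd1 were chosen after seeing the data, as was the higher background level for the median pairwise r.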

Additional observations from a re-analysis of the deposited data

How the results depend on the processing

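The number of followed genes above background stayed at 9 without each array in turn, and 0 genes were related to Mt1, Nqo1 or Nfe2l2 at an adjusted p under 0.05 under every alternative run. Median centring of the arrays moved the median SD of the 9 genes to 0.092, the SD of Gclc to 0.070 and that of Nfe2l2 to 0.092, while quantile normalization moved the SD of Gclc to 0.035. Leaving out each array in turn gave an SD of Txnrd1 from 0.044, without replicate 4, to 0.083, and an r of Mt1 with Mt2 from 0.55 to 0.98, past the threshold of the exact permutation test only without replicate 5. The number of pairs with an exact permutation p under 0.05 was 0 with Spearman's rho, and ran from 0, without replicate 8, to 3 when an array was left out. The causes were not tested, beyond the smaller number of arrays. Median centring also took the exact permutation p of Mt3 with Srxn1 to 0.0528. Of 201 comparisons of an alternative with the value reported, 176 were taken as unchanged. For a test this meant keeping its side of the threshold, and for a description moving by less than the jackknife error over arrays. For a count it meant staying equal or within a fixed ratio. The jackknife error came from the same runs without each array. A reversed sign was looked for only in Mt1 with Mt2 and the pairs chosen after seeing the data, and none reversed. Outside these pairs, several changed the sign of r when 1 array was left out. Without replicate 4, r turned from 0.15 to -0.25 for Hmox1 with Nfe2l2. In the same setting it turned from 0.48 to -0.32 for Mt1 with Txnrd1 and from 0.33 to -0.31 for Txnrd1 with Nfe2l2. No paired analysis was possible because the 6 arrays form 1 group. With 6 arrays of 1 group, weak relations could not be detected, and no effect of the serum can be read. A single strong relation could not pass the adjusted exact permutation tests either, so their counts of 0 do not show that relations are absent.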
